A study of Homo sapiens with 9 samples.

Results

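Long non-coding RNAs (lncRNAs) of renal carcinoma cells were followed in 786-O cells after depletion of ARNT or BMAL1. The lncRNAs were KCCAT211, MIR210HG, MALAT1, NEAT1, GAS5 and SNHG1, taken by name as 6 of the 38021 genes in the table, and each had 1 row and reads in all 9 libraries. KCCAT211 was selected because it was among the genes raised most by shARNT, so its values are given as a description with no test in any comparison. The other 5 were picked by name with earlier results of these data known, and on what grounds was not recorded.

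786-O is an established human cell line from a clear cell renal cell carcinoma without functional VHL, in which HIF2α (EPAS1) accumulates at normal oxygen. All cells carried a lentiviral pLKO.1 short hairpin RNA (shRNA) under puromycin selection: a control hairpin (shControl, genotype given as WT), a hairpin to ARNT (shARNT) or a hairpin to BMAL1 (shBMAL1). ARNT and BMAL1 are related bHLH-PAS proteins; ARNT is the usual partner of the HIF α subunits, and BMAL1 pairs with CLOCK in the circadian clock. There were 3 libraries per group, which the labels call biological replicates, and the sources do not say whether they came from separate infections, so p-values measure the spread between these libraries only. Nothing in the sources used here describes any group as a single clone.

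Messenger RNA libraries held 33793045 to 35444735 reads each. ARNT had 2352 ± 184 normalised read counts in shControl and 1225 ± 23.2 in shARNT (SD, n = 3), and BMAL1 (row ARNTL) had 761 ± 32.0 in shControl and 326 ± 29.2 in shBMAL1. Each target was also lower in the other knockdown: ARNT by a log2 fold change of −0.23 in shBMAL1 (DESeq2 adjusted p 0.0187) and ARNTL by −0.26 in shARNT (adjusted p 0.0294). EPAS1, which encodes HIF2α, fell in shARNT (−0.23, adjusted p 0.000563) and was not called in shBMAL1 (−0.06, adjusted p 0.546). These values are of RNA. By Western blot in 786-O cells, the paper reported no loss of HIF2α protein in either knockdown. It also reported slightly more ARNT protein after BMAL1 depletion, and slightly more BMAL1 protein after ARNT depletion. The 7 markers of renal epithelial cells and carcinoma (PAX8, PAX2, KRT8, KRT18, VIM, CDH2 and CA9) summed to 137738 to 140828 normalised read counts per library in shControl, 129945 to 132479 in shARNT and 113132 to 125703 in shBMAL1, most of it from VIM, and none was at 0. The kidney lineage factor PAX8 had means of 10004, 10031 and 7156 in these groups, PAX2 of 613, 602 and 825, and the HIF target CA9 of 128, 17.7 and 265. The 5 leukocyte markers summed to 7.04 to 14.7 normalised read counts per library, with CD3E and LYZ at 0 in all 9. The 3 endothelial markers summed to 2.01 to 8.95 with CDH5 at 0, and 4 fibroblast markers summed to 99.0 to 148 in shControl, 99.2 to 105 in shARNT and 230.1 to 262 in shBMAL1, most of it from LUM.

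Transcripts of this class act as RNA, without being translated. NEAT1 is the scaffold around which paraspeckles, nuclear bodies rich in RNA-binding proteins, assemble, and MALAT1 accumulates in nuclear speckles, where splicing factors are stored. MALAT1 and the long isoform of NEAT1 end in an RNA helix in place of a poly(A) tail, while the short NEAT1 isoform is polyadenylated. GAS5 and SNHG1 are host genes, whose introns carry small nucleolar RNAs (snoRNAs) that guide modification of ribosomal RNA. MIR210HG is the host transcript of miR-210, a microRNA known for its induction by HIF in hypoxic cells and in clear cell renal cell carcinoma. KCCAT211 belongs to a set of transcripts named for their association with kidney clear cell carcinoma.

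All gene positions are on GRCh37, from the GENCODE annotation lifted to that build. KCCAT211, which the annotation lists as LINC02015, spans 177534653 to 177617012 on the plus strand of chromosome 3. MIR210HG spans 565657 to 568457 on the minus strand of chromosome 11. On the plus strand of the same chromosome, NEAT1 (65190245 to 65213011) and MALAT1 (65265111 to 65275544) lie 52099 bases apart. SNHG1 lies at 62619450 to 62623425 on the minus strand of chromosome 11, and GAS5 at 173827697 to 173838020 on the minus strand of chromosome 1.

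The microRNA that gives MIR210HG its name is printed because the read counts measured the host transcript and not this product. It is the mature 3′ arm from RefSeq (GRCh38.p14, chr11:568112-568133, minus strand), with its seed, bases 2 to 8, in capitals.
hsa-miR-210-3p: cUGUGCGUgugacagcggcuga

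Promoter windows of 300 bases, from 250 before to 50 after the transcription start site, were found in RefSeq for 5 of the 6 lncRNAs, with a pair of windows for MALAT1. The windows printed are those of the host of miR-210, of SNHG1, whose window is shared with a neighbouring gene, and of KCCAT211, which had the largest fold change. Capitals mark ACGTG and GCGTG on either strand, the forms of the core of the hypoxia response element to which HIF dimers bind. ACGTG also lies within the E-box CACGTG, whose letters read the same on both strands. MIR210HG is at chr11:568408-568707 on the minus strand, SNHG1 at chr11:62855836-62856135 on the minus strand, and KCCAT211 at chr3:177816615-177816914 on the plus strand, all on GRCh38.p14.
MIR210HG: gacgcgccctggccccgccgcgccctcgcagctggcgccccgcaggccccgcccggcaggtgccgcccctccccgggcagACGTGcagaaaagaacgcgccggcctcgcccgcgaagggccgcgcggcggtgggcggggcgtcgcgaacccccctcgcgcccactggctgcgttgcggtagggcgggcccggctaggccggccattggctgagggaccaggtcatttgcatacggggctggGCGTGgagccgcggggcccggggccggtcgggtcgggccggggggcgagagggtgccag
SNHG1: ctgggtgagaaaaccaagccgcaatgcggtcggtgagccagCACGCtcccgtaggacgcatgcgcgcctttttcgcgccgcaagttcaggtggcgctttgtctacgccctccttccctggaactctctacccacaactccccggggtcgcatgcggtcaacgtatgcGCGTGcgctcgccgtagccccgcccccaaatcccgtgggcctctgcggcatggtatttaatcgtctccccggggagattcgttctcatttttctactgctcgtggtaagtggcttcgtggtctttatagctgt
KCCAT211: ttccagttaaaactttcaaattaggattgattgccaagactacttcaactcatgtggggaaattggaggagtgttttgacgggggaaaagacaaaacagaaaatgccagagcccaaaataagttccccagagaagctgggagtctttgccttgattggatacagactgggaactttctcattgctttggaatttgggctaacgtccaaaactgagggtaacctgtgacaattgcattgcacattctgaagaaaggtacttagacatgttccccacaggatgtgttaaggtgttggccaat

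Of the 6 windows, 4 held at least 1 core in either form. The MIR210HG window held ACGTG once, beginning at position −170 relative to the start site, and GCGTG once, at position −9. GCGTG was found 2 times in the SNHG1 window, 2 times in the upstream MALAT1 window and once in the other, and neither form was found in the windows of KCCAT211 and GAS5. None held CACGTG. Over the 35116 promoter windows in the RefSeq table, 48.4% held either form, 21.4% ACGTG, 36.5% GCGTG and 7.26% CACGTG. These matches describe letters and not binding.

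Levels of different genes were compared as normalised read counts per kilobase of exon. In shControl, SNHG1 was the highest of the 6, at 494 ± 32.7 (SD, n = 3). NEAT1 followed at 248 ± 4.84, then GAS5 at 224 ± 5.23 and MALAT1 at 213 ± 21.5. The range of MALAT1 (194 to 236) overlapped that of GAS5 (218 to 228), so on this length these neighbours in the order did not differ beyond their spread, and NEAT1 (243 to 252) lay above both. The place of GAS5 depends on the length used, a choice examined after seeing the data: per kilobase of the longest annotated transcript (3145 bases, against 4932 for all exons) GAS5 was at 351 ± 8.20, above NEAT1 (248 ± 4.85) and MALAT1 (213 ± 21.5), while SNHG1 was still highest at 521 ± 34.4. MIR210HG came next at 147 ± 23.2, and KCCAT211 was lowest at 9.63 ± 1.43. NEAT1 was divided by 22767 bases of exon, which include its long isoform. No length for the short isoform was tried, and a shorter length would raise NEAT1. Its place in the order, also against SNHG1, depends on which isoform the reads came from, which was not examined. By total normalised read count, which also rises with length, NEAT1 was number 5 and MALAT1 number 22 of the 1314 annotated lncRNAs detected in shControl, while KCCAT211 was number 520.

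By the same lengths, and with the same limit for NEAT1, the order per kilobase differed in the knockdowns. In shARNT, NEAT1 (485 ± 67.0) and SNHG1 (482 ± 43.7) were level within their spread, with MALAT1 next (419 ± 43.5). In shBMAL1, NEAT1 was highest at 751 ± 49.3, above SNHG1 (489 ± 12.4) and MALAT1 (429 ± 48.7). GAS5 (201 ± 14.3 in shARNT and 194 ± 8.70 in shBMAL1), MIR210HG (101 ± 14.7 and 161 ± 6.42) and KCCAT211 (49.8 ± 5.01 and 29.5 ± 2.15) lay below these 3 lncRNAs in both knockdowns, also by the longest transcript (GAS5 at 315 ± 22.5 and 304 ± 13.6).

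**Figure D1:**
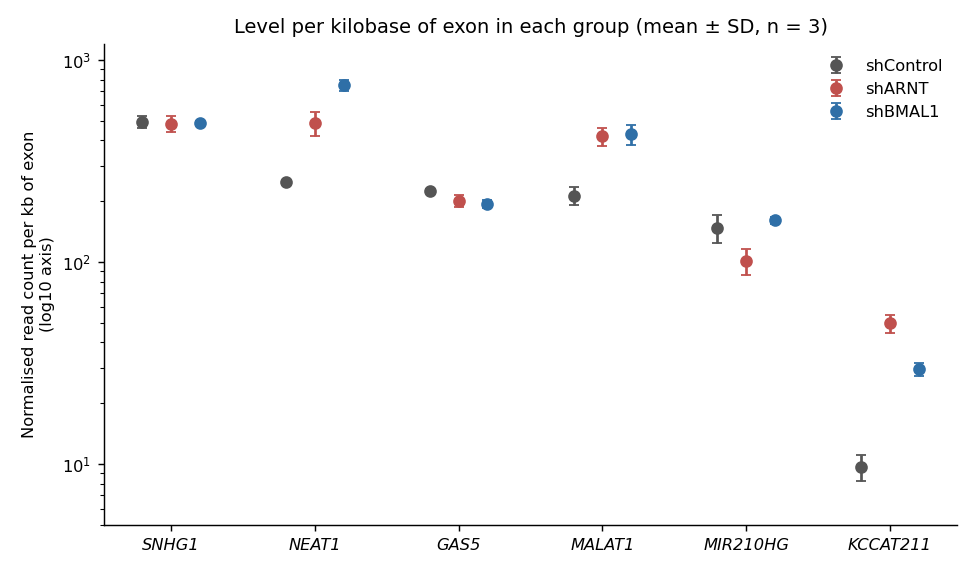
Normalised read count per kilobase of exon (log10 axis) for each lncRNA in each group, as mean ± SD of 3 libraries. NEAT1 moved from 248 in shControl to 485 in shARNT and 751 in shBMAL1, while SNHG1 stayed between 482 and 494. NEAT1 was divided by 22767 bases, which include its long isoform, so its place among the lncRNAs depends on that length.

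The comparisons asked how the level of each lncRNA depended on ARNT and on BMAL1. Calls were made at an adjusted p under 0.1 by the DESeq2 Wald test over the whole table, two-sided. Both knockdowns were compared with the same 3 shControl libraries, so the results below for shARNT and shBMAL1 are not independent, and shBMAL1 was also compared directly with shARNT.

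**Figure D2:**
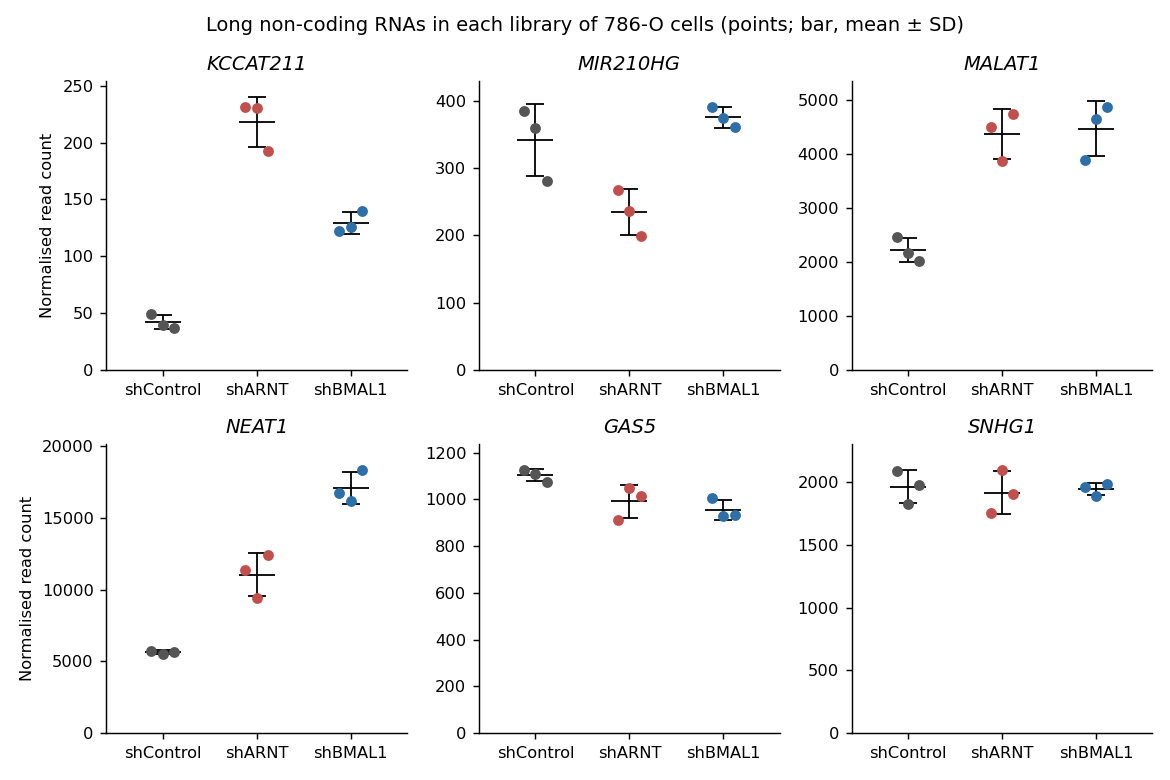
Normalised read count of each lncRNA in every library (points, linear axes from 0) with the mean ± SD of 3 libraries per group. The 3 groups were separate for KCCAT211 and NEAT1, both knockdowns lay above shControl for MALAT1, shARNT lay below the other groups for MIR210HG, and the groups overlapped for SNHG1.

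In shARNT, MALAT1 and NEAT1 rose about equally and MIR210HG fell, while GAS5 and SNHG1 did not pass the test. Of the 5 tested, 2 were called higher and 1 lower. Among the 15164 genes tested 35.4% were called, 16.5% higher and 19% lower. The shARNT and shControl libraries did not overlap for 4 of the 5, against 43.9% of all genes.

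In shBMAL1, NEAT1 and MALAT1 rose, GAS5 was called lower, and MIR210HG and SNHG1 did not pass the test. Here too 2 of the 5 were called higher and 1 lower, among 19036 genes of which 36.8% were called, 17.4% higher and 19.4% lower. The groups did not overlap for 3 of the 5, against 45.2% of all genes. Directly against shARNT, NEAT1 and MIR210HG were higher in shBMAL1 and none of the 5 was lower. Of 18181 genes in that comparison 35.3% were called, 17.3% higher and 18% lower, and groups did not overlap for 2 of the 5 lncRNAs and 43.9% of genes. With about 1 in 3 genes called in each comparison, the sizes of the changes say more than these counts: a change of at least 2-fold was seen in 3.13% of genes tested in shARNT, 13.6% in shBMAL1 and 9.97% in the direct comparison. None of the 5 tested lncRNAs reached 2-fold in shARNT, where MALAT1 came nearest at 1.97-fold, or in the direct comparison. In shBMAL1 MALAT1 (2.01-fold) and NEAT1 (3.02-fold) did.

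**Figure D3:**
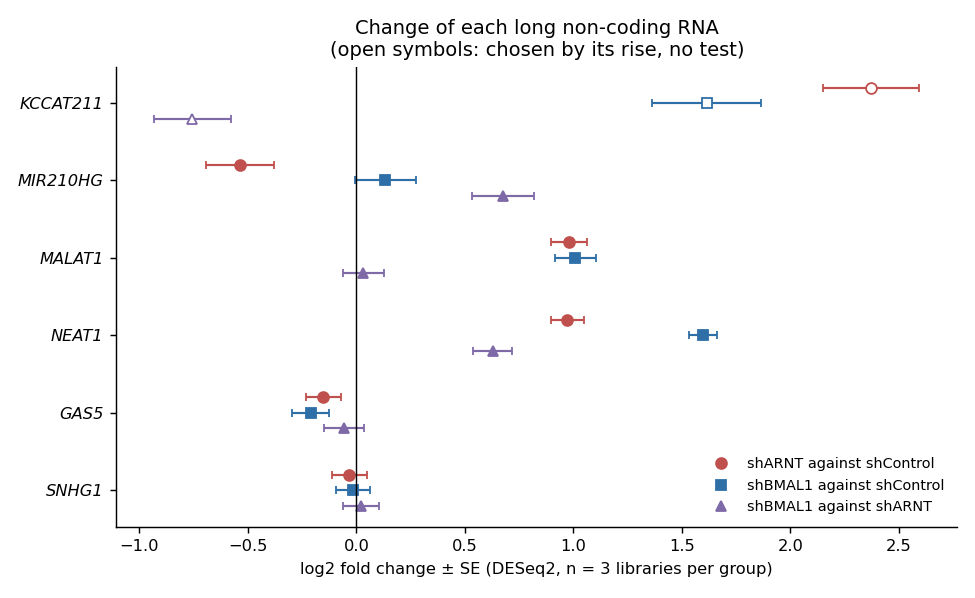
The log2 fold change (± SE, 3 libraries per group) of each lncRNA in shARNT against shControl, in shBMAL1 against shControl and in shBMAL1 against shARNT. MALAT1 was at 0.98 and 1.01 in the knockdowns, NEAT1 at 0.97 and 1.60, and MIR210HG at −0.54 and 0.13; open symbols mark KCCAT211, selected by its rise and not tested.

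NEAT1 was the most abundant of the 6 by total count. Its normalised read counts were 5735, 5522 and 5677 in the shControl libraries, 11358, 9397 and 12403 in shARNT, and 16731, 16196 and 18353 in shBMAL1. All 3 groups were separate, with shBMAL1 highest in every library. NEAT1 rose by a log2 fold change of 0.97 (SE 0.08, DESeq2 adjusted p 4.65e-34) in shARNT and 1.60 (SE 0.07, adjusted p 1.24e-125) in shBMAL1, where NEAT1 was 3.02-fold above shControl. The direct difference of 0.63 (SE 0.09, adjusted p 4.25e-11) placed NEAT1 1.55-fold higher with shBMAL1 than with shARNT. As a share of all reads NEAT1 went from 0.0161% in shControl to 0.0320% in shARNT and 0.0499% in shBMAL1.

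MALAT1 had normalised read counts of 2462, 2179 and 2020 in shControl, 4509, 3867 and 4745 in shARNT, and 3901, 4654 and 4868 in shBMAL1. Every knockdown library lay above every control library, and the knockdowns overlapped each other. MALAT1 rose by a log2 fold change of 0.98 (SE 0.08, DESeq2 adjusted p 3.04e-30) in shARNT and 1.01 (SE 0.09, adjusted p 5.08e-25) in shBMAL1. The direct difference was 0.03 with a 95% confidence interval of −0.15 to 0.21 (adjusted p 0.855), so a difference between the knockdowns larger than these bounds was not seen.

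The ratio of NEAT1 to MALAT1 read counts summarised how these neighbours on chromosome 11 moved relative to each other. This ratio was 2.56 ± 0.24 (SD, n = 3) in shControl, 2.52 ± 0.09 in shARNT and 3.85 ± 0.41 in shBMAL1. The shBMAL1 libraries (3.48 to 4.29) lay above the shControl (2.33 to 2.81) and shARNT libraries (2.43 to 2.61), which overlapped. FRMD8, a protein-coding gene 9248 bases from NEAT1, rose in shARNT (log2 fold change 0.38, DESeq2 adjusted p 0.0148) and was not called in shBMAL1 (0.12, adjusted p 0.559).

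The mean shares of mitochondrial and histone reads moved in the same order as NEAT1. Of the reads, mitochondrial genes took 6.25% ± 0.86 (SD, n = 3) in shControl, 8.11% ± 0.61 in shARNT and 9.40% ± 0.54 in shBMAL1. Each knockdown lay wholly above shControl in this share, while shARNT (7.64% to 8.79%) and shBMAL1 (8.77% to 9.73%) overlapped. Replication-dependent histone genes, whose mRNAs mostly lack a poly(A) tail, took 0.0018% to 0.0023% of the shControl libraries, 0.0035% to 0.0039% of the shARNT libraries and 0.0048% to 0.0059% of the shBMAL1 libraries. Structural RNAs without a poly(A) tail (RMRP, RPPH1, RN7SK, RN7SL1, RN7SL2 and TERC) took 0.000058% to 0.00018% of reads in all groups. Their mean share went the other way, at 0.000153% in shControl, 0.000118% in shARNT and 0.000102% in shBMAL1, with overlapping libraries. Of these 6 RNAs, only 1 was tested in shARNT and 3 in each other comparison, and none of those tested was called. The part of these shares in the NEAT1 and MALAT1 results was not tested. TALAM1, an antisense RNA over MALAT1, had no row, and since nothing states whether counting used strand, its reads cannot be told apart from those of MALAT1.

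**Figure D4:**
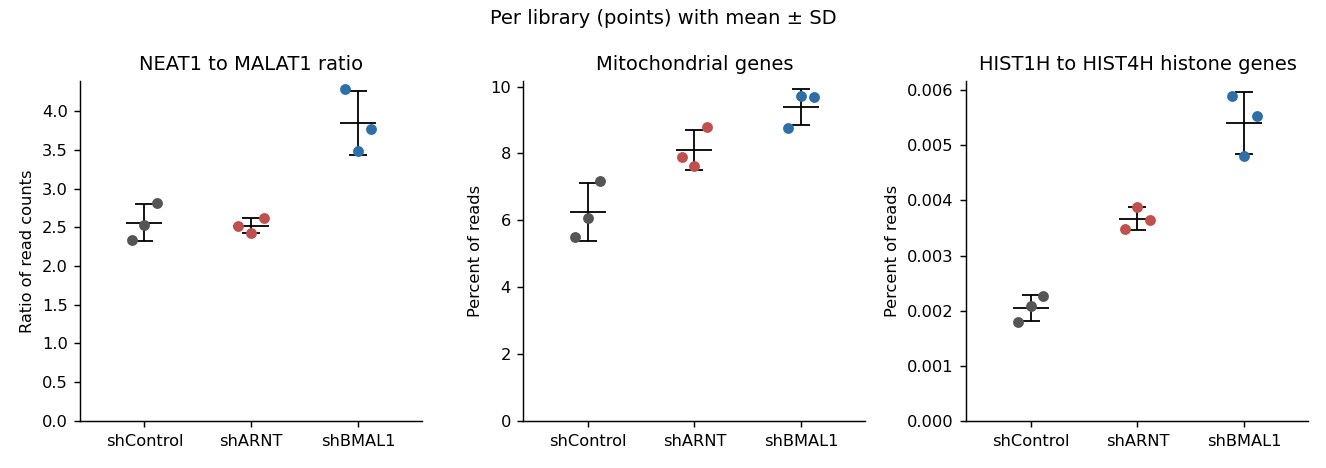
Ratio of NEAT1 to MALAT1 read counts, share of reads from mitochondrial genes and share of reads from histone genes in each library (points), with mean ± SD of 3 libraries per group. The mean ratio was 2.56 with shControl, 2.52 with shARNT and 3.85 with shBMAL1, and both shares were lowest in shControl and highest in shBMAL1.

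Proteins of the bodies that hold these RNAs were examined by their mRNA. Among 11 paraspeckle proteins, 2 rose, 1 fell and 8 were not called in shARNT, with a median log2 fold change of 0.07, against 16.5% higher and 19% lower of all genes tested. PSPC1, a core paraspeckle protein, rose from 1536 ± 61.0 to 1996 ± 44.8 normalised read counts (0.38, DESeq2 adjusted p 1.85e-07), HNRNPH3 rose by 0.18 (adjusted p 0.0807), and DAZAP1 fell by 0.36 (adjusted p 5.22e-09). In shBMAL1, 1 rose, 2 fell and 8 were not called, with a median of −0.03, against 17.4% higher and 19.4% lower of all genes. NONO, which with SFPQ binds NEAT1, rose by 0.18 (adjusted p 0.006), whereas DAZAP1 fell by 0.63 (adjusted p 1.57e-15) and NUDT21, a factor of cleavage and polyadenylation that affects the choice of NEAT1 isoform, fell by 0.45 (adjusted p 1.54e-08).

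Of 13 nuclear speckle proteins, 6 rose and none fell in shARNT (median 0.13), where 16.5% of all genes tested were called higher and 19% lower. They included the splicing factor SRSF2 (log2 fold change 0.23, DESeq2 adjusted p 9.62e-05) and the scaffold SRRM2 (0.21, adjusted p 0.00181). In shBMAL1 3 rose and none fell (median −0.01), a share of higher calls near the 17.4% of all genes, with SRSF5 at 0.30 (adjusted p 0.000886) and PNN at 0.18 (adjusted p 0.067). Over all genes tested the median log2 fold change was 0.0028 in shARNT and 0.015 in shBMAL1. In the direct comparison 6 of the 13 were lower with shBMAL1 and 1 was higher, and of the 11 paraspeckle proteins 5 were lower and 1 higher, where 18% of all genes were lower and 17.3% higher.

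MIR210HG fell in shARNT and was not called in shBMAL1, and the difference between the knockdowns passed its own test. Its normalised read counts were 384, 359 and 281 in shControl, 268, 237 and 199.8 in shARNT, and 390.2, 375 and 360.4 in shBMAL1. All shARNT libraries lay below all others, while shBMAL1 and shControl overlapped. The change on the log2 scale was −0.54 (SE 0.16, DESeq2 adjusted p 0.00352) with shARNT and 0.13 (SE 0.14, adjusted p 0.531, 95% confidence interval −0.14 to 0.41) in shBMAL1. Without shControl replicate 3, the lowest control library, the latter was 0.0090, and without shControl replicate 1 it was 0.22. Leaving out each library in turn gave −0.66 to −0.43 in shARNT, where the call held. The DESeq2 adjusted p in shARNT rose to 0.0652 without shControl replicate 1 and to 0.0585 without shARNT replicate 3. Against shARNT, MIR210HG was 1.60-fold higher with shBMAL1 (log2 difference 0.67, SE 0.14, adjusted p 2.51e-05).

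The row of MIR210 itself held 1 to 7 reads per library. The libraries were not made to capture mature microRNAs, so it gave no measure of miR-210. RASSF7, a Ras association domain gene on the opposite strand 1631 bases from MIR210HG, was at 927 ± 91.2 (shControl), 740 ± 30.6 (shARNT) and 904 ± 144 (shBMAL1) normalised read counts. It fell in shARNT (log2 fold change −0.32, DESeq2 adjusted p 0.00373), was not called in shBMAL1 (−0.04, adjusted p 0.863) and was higher in shBMAL1 in the direct comparison (0.29, adjusted p 0.0395). PHRF1, 8012 bases away on the other side, was called in neither knockdown (0.10 and −0.04).

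Of 12 genes reported as targets of miR-210, 2 rose, 1 fell and 9 were not called in shARNT, and 5 rose, 2 fell and 5 were not called in shBMAL1. Over all genes 35.4% were called in shARNT and 36.8% in shBMAL1. ISCU, which builds iron-sulfur clusters, went from 1665 ± 83.0 normalised read counts in shControl to 2362 ± 272 in shARNT (log2 fold change 0.51, DESeq2 adjusted p 1.84e-08). In shBMAL1, where MIR210HG was not called, ISCU was at 2046 ± 77.9 and also rose (0.30, adjusted p 0.000758), and it was lower there than in shARNT in the direct comparison (−0.21, adjusted p 0.0613). The cell cycle factor E2F3 rose by 0.23 (adjusted p 0.00119) and the receptor FGFRL1 fell by 0.21 (adjusted p 0.0109) in shARNT. In shBMAL1 the activin receptor ACVR1B rose by 0.39 (adjusted p 4.93e-05) and NDUFA4, a respiratory chain subunit, by 0.34 (adjusted p 0.00695), while GPD1L fell by 0.33 (adjusted p 0.0833).

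KCCAT211 had 49, 40 and 37 reads in the shControl libraries, 237, 235 and 194 in shARNT, and 123, 125 and 143 in shBMAL1. As normalised read counts these were 42.2 ± 6.26, 218 ± 22.0 and 129 ± 9.43 (SD, n = 3), and all 3 groups were separate. The level in shARNT, by which it was selected, was 5.18-fold that in shControl, a log2 fold change of 2.37 (SE 0.22). In shBMAL1 it was 3.06-fold that in shControl, or 1.61 (SE 0.25), and the log2 difference of shBMAL1 from shARNT was −0.75 (SE 0.18). No annotated gene overlapped it, and the nearest protein-coding genes were far away: TBL1XR1, 588864 bases to one side, was called in no comparison (log2 fold change −0.01 in shARNT and 0.11 in shBMAL1), and KCNMB2, 373707 bases to the other, had no reads in any of the 9 libraries.

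GAS5 changed little. Its normalised read counts were 1126, 1111 and 1076 in shControl, 912, 1047 and 1017 in shARNT, and 1005, 927 and 934 in shBMAL1, so both knockdowns lay just below the control libraries. GAS5 had a log2 fold change of −0.15 (SE 0.08, DESeq2 adjusted p 0.164) in shARNT and −0.21 (SE 0.09, adjusted p 0.048) in shBMAL1. The call in shBMAL1 was lost without shControl replicate 1 (adjusted p 0.157) or 2 (0.130), without shBMAL1 replicate 2 (0.175) or 3 (0.145), or when replicate numbers formed a block (0.128), and after a GC correction shARNT was called too (−0.19, adjusted p 0.0479). Without shARNT replicate 1 the value in shARNT was −0.095 (adjusted p 0.514). The direct difference was −0.06 (adjusted p 0.724), and leaving out each library in turn gave −0.11 to −0.02.

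ZBTB37 and the antisense GAS5-AS1 overlap GAS5 on the opposite strand, and neither was called in any comparison. The 11 snoRNA rows within GAS5 summed to 241 ± 25.1 (shControl), 238 ± 26.9 (shARNT) and 233 ± 25.6 (shBMAL1) normalised read counts. Of these rows 6 were tested in shARNT and all 11 in shBMAL1 and in the direct comparison, and none of those tested was called. Intronic snoRNAs are mostly too short for an mRNA library, so these sums are not levels of the mature snoRNAs.

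SNHG1 showed no change beyond its spread. Its normalised read counts were 2087, 1828 and 1979 in shControl, 1751, 2098 and 1903 in shARNT, and 1962, 1890 and 1984 in shBMAL1, with all groups overlapping. SNHG1 had a log2 fold change of −0.03 (DESeq2 adjusted p 0.818, 95% confidence interval −0.19 to 0.12) in shARNT and −0.02 (adjusted p 0.913, −0.17 to 0.14) in shBMAL1, and the direct difference was 0.02 (adjusted p 0.902, −0.14 to 0.18). The 8 snoRNA rows within SNHG1 summed to 121 ± 19.5, 129 ± 6.35 and 125 ± 17.9 normalised read counts in the 3 groups. None of those tested, 6 in shARNT and 8 in the other comparisons, was called.

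SLC3A2, which encodes the heavy chain of amino acid transporters, lies on the opposite strand 50 bases from SNHG1, and a RefSeq promoter window of SLC3A2 shares 277 of its 300 bases with the SNHG1 window printed above. In normalised read counts SLC3A2 was at 14717 ± 730 with shControl, 9669 ± 172 with shARNT and 12418 ± 281 with shBMAL1. SLC3A2 fell in both knockdowns, by 0.60 (DESeq2 adjusted p 4.07e-30) in shARNT and by 0.25 (adjusted p 0.000414) in shBMAL1, where SNHG1 was not called. The difference between the 2 genes was not tested. WDR74, 10168 bases away on the other side, was called in neither knockdown.

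The other non-coding snoRNA hosts moved in both directions. Of 19 tested, 3 rose, 3 fell and 13 were not called in shARNT (median log2 fold change 0.02), and 3 rose, 6 fell and 10 were not called in shBMAL1 (median −0.10). Over all genes 16.5% were called higher and 19% lower in shARNT, and 17.4% and 19.4% in shBMAL1. SNHG12 fell in both, by 0.39 in shARNT (DESeq2 adjusted p 0.0183) and by 0.45 in shBMAL1 (adjusted p 0.007). SNHG19 fell by 0.31 in shARNT (adjusted p 0.00607) and SNHG6 by 0.32 in shBMAL1 (adjusted p 0.00435). DANCR rose by 0.44 in shARNT (adjusted p 1.77e-07), EPB41L4A-AS1 by 0.39 in shARNT (adjusted p 0.0116) and 0.31 in shBMAL1 (adjusted p 0.0723), and SNHG7 by 0.31 in shBMAL1 (adjusted p 0.000406).

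**Figure D5:**
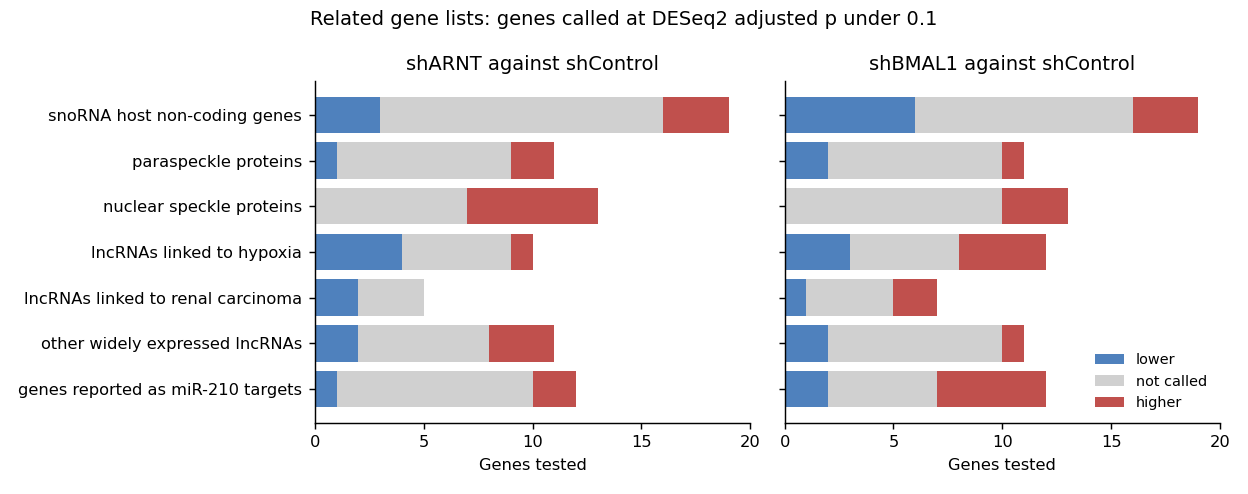
Number of genes tested in each related list that were called lower, not called or called higher in shARNT (left) and shBMAL1 (right), at a DESeq2 adjusted p under 0.1. Nuclear speckle protein genes were called in 1 direction, with 6 of 13 higher in shARNT and 3 of 13 in shBMAL1 (16.5% and 17.4% of all genes tested were called higher), while snoRNA hosts were called in both directions.

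Of the lncRNAs linked to hypoxia, 4 of 10 tested fell and 1 rose in shARNT (median log2 fold change −0.19), where 10.9% of all annotated lncRNAs tested were called lower and 13.0% higher. In shBMAL1 3 of 12 fell and 4 rose (median 0.19), against 7.98% and 20% of annotated lncRNAs. Directly, 5 of 11 were higher and 1 lower in shBMAL1 (median 0.37). Of all annotated lncRNAs in that comparison, 18.5% were higher and 6.12% lower (median 0.16). LUCAT1, a stress-induced lncRNA, went from 849 ± 66.2 normalised read counts in shControl to 486 ± 50.2 with shARNT and 646 ± 82.5 with shBMAL1; it fell by 0.80 (DESeq2 adjusted p 7.98e-13) and by 0.40 (adjusted p 0.00214). LINC01116 fell by 0.46 in shARNT (adjusted p 1.46e-09). UCA1, first described in bladder carcinoma, rose in both (0.47 and 0.56, adjusted p 0.0153 and 0.000816), and MIR31HG, the host of miR-31, rose in shBMAL1 (0.85, adjusted p 7.5e-08). LINC00152 (CYTOR) fell by 0.61 in shBMAL1 (adjusted p 2.49e-07), but it shares near-identical sequence with MIR4435-2HG, so the reads of the pair may be divided between them.

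Of the lncRNAs linked to renal carcinoma, 2 of 5 tested fell and none rose in shARNT, and 2 of 7 rose and 1 fell in shBMAL1. Of all annotated lncRNAs tested, 10.9% were called lower and 13.0% higher in shARNT, and 7.98% and 20% in shBMAL1. LINC00887 was at 297 ± 10.3 (shControl), 131 ± 9.81 (shARNT) and 315 ± 26.6 (shBMAL1) normalised read counts. This lncRNA fell in shARNT (log2 fold change −1.18, DESeq2 adjusted p 1.17e-12) and was higher with shBMAL1 in the direct comparison (1.26, adjusted p 1.05e-13). CRNDE rose in shBMAL1 (0.42, adjusted p 0.00832). The remaining genes of this list called in a knockdown had a mean under 50 and were named after their values were seen. KCCAT198, another transcript named for kidney clear cell carcinoma, had 71.1 ± 17.9, 40.7 ± 6.43 and 22.8 ± 6.69 normalised read counts in shControl, shARNT and shBMAL1, and fell by 0.80 (DESeq2 adjusted p 0.0353) and 1.64 (adjusted p 3.56e-05). EGOT rose by 0.87 in shBMAL1 (adjusted p 0.0385). KCCAT333, of the same naming, had means of 4.69, 1.97 and 10.9 normalised read counts in the 3 groups; it was not called in shBMAL1 (log2 fold change 1.22, adjusted p 0.255), was not among the genes tested in shARNT, and was higher with shBMAL1 in the direct comparison (2.47, adjusted p 0.0453).

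Among 11 other widely expressed lncRNAs, 3 rose and 2 fell in shARNT and 1 rose and 2 fell in shBMAL1, near the 28.0% of annotated lncRNAs called in either direction in shBMAL1 and against 23.9% in shARNT. MIR22HG rose by 0.56 in shARNT (DESeq2 adjusted p 4.96e-06) and TUG1 fell by 0.23 (adjusted p 0.000796). MIR17HG, the host of the miR-17-92 cluster, was raised by 0.82 and 0.80 (adjusted p 0.0803 and 0.053). MIR4435-2HG fell by 0.33 in shARNT (adjusted p 1.9e-06) and 0.64 in shBMAL1 (adjusted p 4.33e-15), and KCNQ1OT1 by 0.55 in shBMAL1 (adjusted p 0.0106).

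For each of the 6 lncRNAs, the genes with the most similar pattern were found by Pearson correlation of log2(normalised read count + 1) over the 9 libraries, among 12917 genes with a mean of at least 50. The 9 points fall into 3 groups, so a high r largely reflects the group means, and it is given with no test. NEAT1 was most like HIST1H1C (r = 0.993), a linker histone gene at 78.8 ± 3.24, 160.0 ± 12.9 and 277 ± 14.3 normalised read counts in the 3 groups, followed by CSAD (0.986) and TSPAN12 (0.986). MALAT1 was most like CCDC90B (0.976), NPR1 (0.976) and CRIM1 (0.976), and KCCAT211 most like MRPS9 (0.986), SGK2 (0.984) and CMTM3 (0.983). For MIR210HG the closest were GEMIN7 (0.977), RALGAPA1 (0.971) and KANK1 (0.969). GAS5 was closest to ZNF90 (0.964), TMEM243 (0.950) and LOC105376575 (0.946). SNHG1, with no change between groups beyond its spread, had the weakest matches, DIS3L2 (0.896), LOC100507346 (0.874) and PTGIS (0.872).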

How the data were processed

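Estimated counts per gene were deposited by the authors for 9 libraries. The study's methods name GRCh37, SeqMan NGen and ArrayStar, the labels name hg38 and STAR; which made the table, and the annotation and strand setting, are not given in the sources used here. A value of 0.009 stood for 0, and fractional values (6.14% of the rest) were rounded. The comparisons were fitted in DESeq2 version 1.42.0 (R 4.3.3) on the 6 libraries concerned, with median-of-ratios size factors and the Wald test; Benjamini-Hochberg adjusted p under 0.1 was a call. The fit was tested on simulated data. Normalised read counts used size factors over all 9 libraries. Groups and replicates followed the labels.

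The lncRNAs and the lists were chosen with earlier results of these data known. Named genes were the 6 lncRNAs, annotated neighbours, the 3 genes most like each, the targeted genes and, per list and knockdown, up to 2 called genes in each direction with a mean of at least 50. Some genes that this rule names are not reported here. Alternatives were edgeR version 4.0.16, TMM size factors, a filter of 10 counts in 3 libraries, adjusted p under 0.05, a 1.5-fold minimum, 1 fit of all libraries, a replicate block, GC correction and leaving out each library.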

Additional observations from a re-analysis of the deposited data

Results flagged for a closer look

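For 2 of the 5 lncRNAs tested, the change in shBMAL1 differed from that in shARNT in the direct test between the knockdowns, which does not use the shared control libraries. Of all 18181 genes in that test 35.3% were called. MIR210HG was higher in shBMAL1 by a log2 difference of 0.67 (SE 0.14, DESeq2 adjusted p 2.51e-05), with all 3 shBMAL1 libraries above all 3 shARNT libraries. NEAT1 was higher in shBMAL1 by 0.63 (SE 0.09, adjusted p 4.25e-11), again with no overlap. Leaving out each library in turn gave 0.57 to 0.78 for MIR210HG and 0.52 to 0.72 for NEAT1, and both stayed called.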

How the results depend on the processing

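Of 210 alternative values of the 5 lncRNAs tested, 195 kept their direction and their side of the threshold, 7 lost and 1 gained a call, and 7 changed sign. A 1.5-fold minimum cut the genes called to 1200, 2606 and 2064 in shARNT, shBMAL1 and the direct comparison, moved the share of higher calls from 46.4%, 47.2% and 49.0% to 40.8%, 58.9% and 66.3%, and took out MIR210HG in shARNT (−0.54) and GAS5 in shBMAL1 (−0.21). GC correction called GAS5 in shARNT (−0.19). Leaving out 1 library gave −0.25 to −0.19 for GAS5 in shBMAL1. SNHG1, never called, ran from −0.10 to 0.03 in shARNT (above 0 without shControl replicate 1, 0.012, or shARNT replicate 1, 0.028), from −0.067 to 0.026 in shBMAL1 (above 0 without shControl replicate 1, or shBMAL1 replicate 2, 0.0068) and from −0.044 to 0.087 directly (below 0 without shARNT replicate 1). MALAT1, not called directly, ran from −0.05 to 0.12 (−0.052 without shARNT replicate 2, −0.034 without shBMAL1 replicate 3). The causes were not tested.

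The replicate numbers did not pair the libraries: deviations of same-numbered libraries correlated at −0.15 to 0.11 and of others at −0.27 to 0.24. With the replicate block 4150, 5742 and 5388 genes were called against 5374, 7005 and 6409, and GAS5 in shBMAL1 (−0.21, DESeq2 adjusted p 0.128) was the only lncRNA of the 5 tested to lose its call.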

Other observations

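The annotated lncRNAs were also counted as a class, with no test between classes. In shARNT 97 of 744 lncRNAs tested were higher and 81 lower (23.9% called), against 38.8% of 12589 protein-coding genes. In shBMAL1 213 of 1065 were higher and 85 lower (28.0% called, median log2 fold change 0.20), against 43.1% of 14080 protein-coding genes. The lncRNAs were also less abundant, with a median mean count of 44.1 in shBMAL1 against 735 for protein-coding genes, and the part of depth in these shares was not tested.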
